A study of Mus musculus with 8 samples.

Results

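The growth hormone receptor gene Ghr and 9 genes of the growth hormone and insulin-like growth factor (IGF) axis were followed in whole back skin of Flg-deficient mice. The 10 genes were Ghr, Igf1, Igf1r, Igfbp3, Igfbp4, Igfbp5, Socs2, Cish, Stat5a and Stat5b. They are 10 of the 49671 genes counted in the series, and all 10 passed the filter on low counts that left 19099 genes for testing. The set was chosen by the fold change of Ghr between the genotypes, which was about 2-fold higher in knockout skin. The question was whether the genes that growth hormone is known to switch on followed it. Ghr is therefore described without a test, and the other 9 genes are read from the fit over all genes.

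Knockout skin, labelled ko/ko for flg, came from 8-week-old mice and gave 4 libraries. Wild-type skin, labelled wt/wt for flg, came from mice of the same age and also gave 4 libraries. Replicate numbers were assigned here in the order of the sample records. The same number in both groups does not mark a pair. The kind of mutation, the strain and any pooling of mice are not stated in the labels, and no treatment is named. Nothing says outright that each library is a separate mouse, so p-values measure the spread between these libraries. Filaggrin, the product of Flg, is a structural protein of the outer epidermis.

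Growth hormone is a pituitary hormone that binds the receptor GHR on target cells. The receptor carries the kinase JAK2, which phosphorylates the transcription factors STAT5A and STAT5B. In liver and other tissues these switch on Igf1, and they also switch on Socs2 and Cish, whose products damp the same receptor. IGF1 then acts on cells through the receptor IGF1R, and the binding proteins IGFBP3, IGFBP4 and IGFBP5 hold IGF1 and control how much of it is free. In skin, dermal fibroblasts and fat cells are known to make IGF1 and keratinocytes to carry its receptor. The counts measure RNA: receptor protein, phosphorylated STAT5 and hormone levels were not analysed here.

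The libraries held between 18483242 and 38545957 counts. Values are given as CPM, read counts scaled to a common library size and corrected for library composition, with the standard deviation over the 4 libraries of a group. Flg itself had 27.0, 24.7, 24.1 and 22.3 CPM in the knockout libraries, against 66.9, 46.5, 56.1 and 66.6 CPM in the wild-type libraries, so RNA counted to Flg was lower in every knockout library but not absent. Whether the counted exons lie outside the mutated part is not given in the sources used here. The tissue carried markers of several skin layers: the basal keratin gene Krt5 lay between 2091 and 2710 CPM, the collagen gene Col1a1 between 4218 and 8979 CPM and the skeletal muscle actin gene Acta1 between 4059 and 5663 CPM over the 8 libraries. The defining brown fat gene Ucp1 had at most 6 reads and the milk protein gene Csn2 at most 1 read in any library, while the other 5 brown fat genes listed, which other tissues also use, summed to between 79.4 and 109.1 CPM in knockout and between 98.9 and 124.2 CPM in wild type. Hair shaft genes summed to 57.5 CPM in knockout replicate 4, against at most 15.4 CPM in any other library. Because whole skin was used, fewer cells of a type and less RNA per cell cannot be told apart in any value below.

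Ghr (ENSMUSG00000055737) encodes the growth hormone receptor and lies on chromosome 15, positions 3317760 to 3583492 on the minus strand of mm10. It had 399.2, 442.9, 335.4 and 420.8 CPM in the knockout libraries, against 199.2, 189.3, 211.7 and 210.7 CPM in the wild-type libraries. The groups did not overlap: the lowest knockout library, replicate 3, was still well above the highest wild-type library, also replicate 3. The log2 fold change was 0.98 ± 0.10 (SE), or 1.97-fold. This is the difference that chose the set, so it carries no test here. Wild-type libraries varied little, with a coefficient of variation of 5.22%, against 11.6% in knockout. Reads of the full-length receptor and of the shorter secreted binding protein that mouse Ghr also encodes were counted together.

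Markers of other cell types are given beside Ghr. A list of 21 white adipocyte genes, which does not hold Ghr, had 19 members above 0 and 2 below in the comparison, with 0 of 21 passing the edgeR test (13 at an unadjusted p under 0.05). None of its defining markers was at 0. Its summed level ranged from 7632 to 9996 CPM in knockout and from 5530 to 9790 CPM in wild type, and the groups overlapped because of wild-type replicate 3. In that library the mean of the list was 7.49 log2 CPM, and Ghr stood at 211.7 CPM. Knockout replicate 3 had a list mean of 7.08 log2 CPM and Ghr at 335.4 CPM. With the list mean as a covariate the log2 fold change of Ghr was 0.81 ± 0.13 (SE). With the mean of a list of 15 fibroblast genes as the covariate instead, it was 0.98 ± 0.11 (SE). A list of 8 smooth muscle genes summed to between 1517 and 1794 CPM in knockout and between 1275 and 1486 CPM in wild type, with no overlap; edgeR called 0 of them (4 at an unadjusted p under 0.05), and none was at 0. Of 9 suprabasal keratinocyte genes 0 were called higher and 2 lower, Calml3 and Lypd3, named after their values were seen. Their summed level was between 6055 and 7258 CPM in knockout and between 6866 and 7477 CPM in wild type, and none was at 0. The adipocyte list mean itself leaned with genotype, so its covariate fit cannot part fat content from genotype. The part of any of these lists, the adipocyte list included, in the value of Ghr was not tested.

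**Figure D1:**
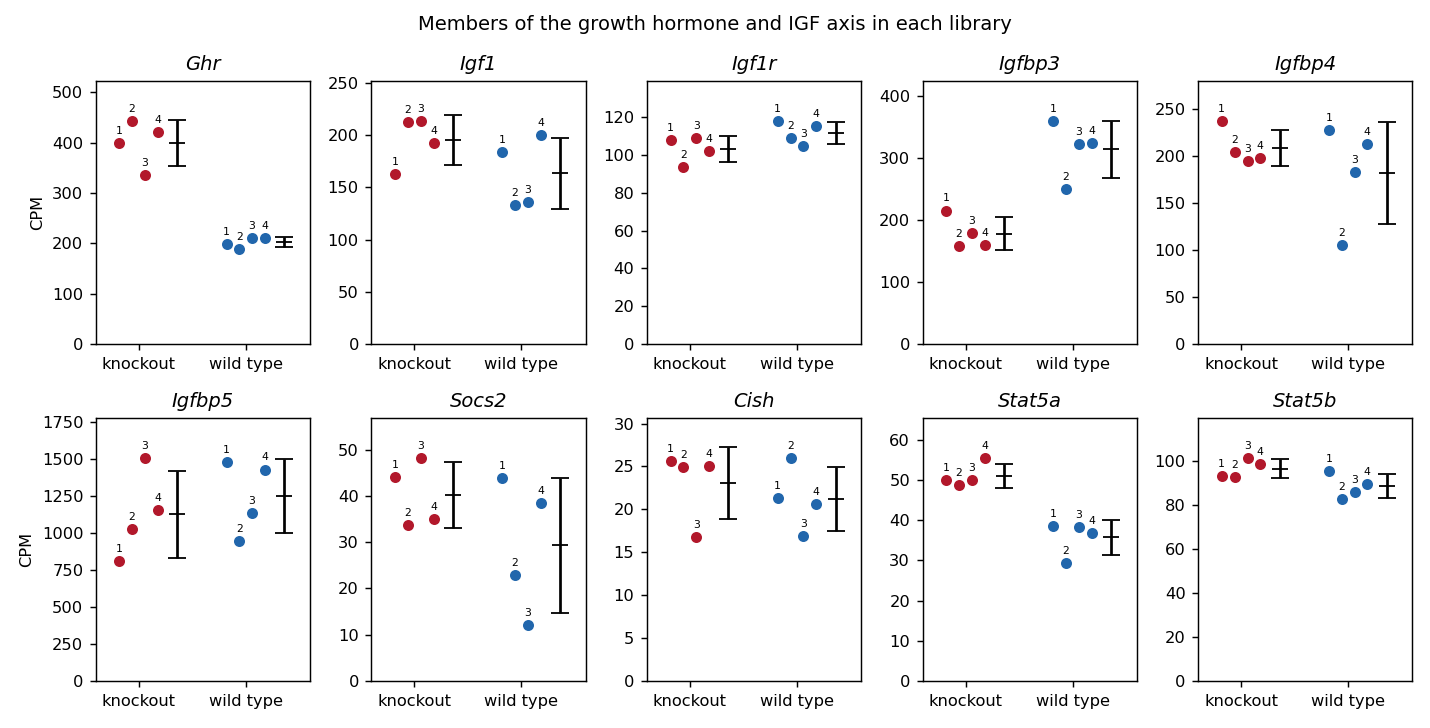
CPM of the 10 genes in each of the 4 knockout libraries (red) and 4 wild-type libraries (blue); the numbers are replicates, and the black bars beside them give the mean and SD of the group. Knockout and wild type do not overlap in Ghr, Igfbp3 and Stat5a, and they overlap in the other 7 genes.

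Of the 9 genes other than Ghr, 1 rose and 1 fell in knockout skin, and the hormone's best known targets were not among them. Stat5a rose and Igfbp3 fell, while Igf1, Socs2 and Cish did not pass the edgeR test. Of all 19099 tested genes, 1.41% were called at an adjusted p under 0.05, 0.712% as higher and 0.702% as lower. Because these genes were picked with results of the same comparison known, nothing is read from the share called. The median log2 fold change of the 9 genes was 0.13, with 6 above 0 and 3 below. Over all tested genes the median was -0.02, with 8918 above 0 and 10181 below. DESeq2 and limma voom, which called more genes than edgeR over the whole table, called the same 2 genes.

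Among the targets of growth hormone, Igf1 (ENSMUSG00000020053, chromosome 10), which encodes the growth factor itself, had 162.8, 212.2, 213.2 and 192.2 CPM in knockout libraries. It had 184.1, 133.2, 135.6 and 200.4 CPM in wild-type libraries. The groups overlapped, with wild-type replicates 1 and 4 as high as knockout libraries. The means were 195.1 ± 23.6 CPM in knockout and 163.3 ± 34.1 CPM in wild type (SD, n = 4 each), at a log2 fold change of 0.26 ± 0.15 (SE, edgeR adjusted p = 0.36). Its 95% interval ran from 0.955-fold to 1.49-fold. A 2-fold increase, such as that of Ghr, lies outside this interval, though a smaller one does not. Gene counts do not separate the start sites and splice forms of Igf1.

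Socs2 (ENSMUSG00000020027, chromosome 10) encodes a suppressor that binds the activated receptor. It had 44.0, 33.6, 48.2 and 34.9 CPM in knockout libraries, against 43.9, 22.8, 12.1 and 38.5 CPM in wild-type libraries. The knockout libraries lay between 33.6 and 48.2 CPM, while wild type spread from well below that range to its upper part. The coefficient of variation was 17.6% in knockout and 49.6% in wild type, the highest of the 10 genes in that group. On the log2 scale the fold change was 0.45 ± 0.35 (SE, edgeR adjusted p = 0.505), with a 95% interval from 0.797-fold to 2.35-fold, so these libraries do not settle whether Socs2 followed Ghr. The difference rested largely on wild-type replicate 3, since without it the value was 0.21 ± 0.21 (SE, edgeR adjusted p = 0.585). With the adipocyte covariate it became 1.29 ± 0.46 (SE, edgeR adjusted p = 0.326).

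Cish (ENSMUSG00000032578, chromosome 9) encodes a related suppressor that STAT5 is known to induce. It had 25.6, 24.9, 16.8 and 25.0 CPM in knockout libraries, against 21.3, 26, 16.9 and 20.6 CPM in wild-type libraries. The groups overlapped throughout, and replicate 3 was the lowest library of each group. On the log2 scale the fold change was 0.12 ± 0.16 (SE, edgeR adjusted p = 0.705), with a 95% interval from 0.852-fold to 1.39-fold that does not reach 2-fold. A gene on the opposite strand, Gm17040, shares 261 exon bases with Cish but had at most 9 reads in a library.

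STAT5 is known to bind the palindrome TTCNNNGAA, which reads the same on both strands. RefSeq windows from 250 bases before to 50 after a gene's start (build GRCm38.p6) were found for 9 of the 10 genes, all but Socs2, as 12 windows of 300 bases. The palindrome occurred in 1 of them, that of Cish, which held 2 copies. Of all 32851 windows in the table, 8.3% held at least 1 copy and 0.457% at least 2. Among the other genes of the pathway described below, 10 of 96 windows (10.4%) held at least 1 copy. The most were in 1 of 2 windows of Bcl6, which held 3 copies, and 0.0335% of all windows held at least 3. These 2 windows are shown because they hold the most copies of the STAT5 palindrome among the genes of the pathway; capitals mark the palindrome, and the first 280 bases of each window are printed, 5′ to 3′ on the gene's own strand, the last 30 of them after the start.
Cish, chr9:107296409-107296688, plus strand: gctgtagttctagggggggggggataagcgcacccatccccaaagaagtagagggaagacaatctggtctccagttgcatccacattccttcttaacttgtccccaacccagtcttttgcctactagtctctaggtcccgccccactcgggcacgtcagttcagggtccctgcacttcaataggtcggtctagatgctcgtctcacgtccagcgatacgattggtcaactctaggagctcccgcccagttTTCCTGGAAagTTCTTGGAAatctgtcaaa
Bcl6, chr16:23981254-23981533, minus strand: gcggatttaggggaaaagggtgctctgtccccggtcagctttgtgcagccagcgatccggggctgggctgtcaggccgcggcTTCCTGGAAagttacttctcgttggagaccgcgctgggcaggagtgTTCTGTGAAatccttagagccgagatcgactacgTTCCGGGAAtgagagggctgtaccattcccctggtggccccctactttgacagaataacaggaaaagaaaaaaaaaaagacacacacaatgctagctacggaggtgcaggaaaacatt
The copies in Cish begin at the first base of the gene in RefSeq and 11 bases after it. Those in Bcl6 begin 168, 122 and 88 bases before the start that the printed window covers, which is 1 of 2 starts. The other Bcl6 window, chr16:23988803-23989102, lies upstream on the gene's strand and held 1 copy, 118 bases before its own start. A match of letters is not a measured binding site, and a window without one says nothing about binding elsewhere.

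The transcription factor genes Stat5a and Stat5b lie next to each other on chromosome 11 and gave different results. Stat5a (ENSMUSG00000004043) had 50, 48.8, 50.1 and 55.5 CPM in knockout libraries, against 38.5, 29.3, 38.4 and 36.8 CPM in wild-type libraries. Every knockout library exceeded every wild-type library, which was so for 5.57% of all tested genes in that direction. Stat5a rose 1.43-fold, at a log2 fold change of 0.515 ± 0.10 (SE, edgeR adjusted p = 0.0416).

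Stat5b (ENSMUSG00000020919) had 92.9, 92.7, 101.3 and 98.5 CPM in knockout libraries, against 95.3, 82.6, 85.9 and 89.5 CPM in wild-type libraries. The groups overlapped through wild-type replicate 1, and Stat5b stood at a log2 fold change of 0.13 ± 0.07 (SE, edgeR adjusted p = 0.364), with a 95% interval from 0.977-fold to 1.22-fold. Whether the changes of the 2 genes differ was not tested. Their coding sequences are closely related, and reads that match both could be assigned to either. Stat5a also shares 72 exon bases with Stat3 on the opposite strand, which had a mean of 5694 reads per library.

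The Stat5a call was near the threshold. It ended without knockout replicate 1 (edgeR adjusted p = 0.0911), 2 (0.118), 3 (0.0792) or 4 (0.142), without wild-type replicate 1 (0.074) or 4 (0.0881), and with the adipocyte covariate (0.316). Calls over all genes fell in the same settings. Against 136 higher and 134 lower, at most 73 higher and 56 lower remained without 1 of these libraries. With the adipocyte covariate, whose list mean leaned with genotype, 1 higher and 1 lower remained. The log2 fold change of Stat5a stayed between 0.43 and 0.56 with any library left out and was 0.39 with the covariate.

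Of the 3 binding protein genes in the set, Igfbp3 fell and the other 2 did not pass the test. Igfbp3 (ENSMUSG00000020427, chromosome 11, positions 7206086 to 7213923, minus strand) encodes the main carrier of IGF1 in blood and is also made in skin. It had 215.2, 157.4, 179.5 and 159.3 CPM in knockout libraries, against 359.0, 250, 323.0 and 324.1 CPM in wild-type libraries. The highest knockout library, replicate 1, stayed below the lowest wild-type library, replicate 2, an order seen in 5.95% of tested genes in that direction. Igfbp3 fell to 56.6% of wild type, with means of 177.8 ± 26.8 CPM in knockout and 314.1 ± 45.8 CPM in wild type (SD, n = 4 each). The log2 fold change was -0.82 ± 0.13 (SE, edgeR adjusted p = 0.0231).

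IGFBP3 in blood is known to rise with growth hormone, and in knockout skin its RNA lay on the other side of 0 from that of Ghr. The call ended without knockout replicate 2 (edgeR adjusted p = 0.0995) or 4 (0.103), without wild-type replicate 1 (0.0565) or 4 (0.0665), and with the adipocyte covariate (0.127). Calls over all genes also fell in each of these settings, as given for Stat5a. The log2 fold change of Igfbp3 was between -0.92 and -0.75 with any library left out and -0.91 with the covariate. A list of 15 fibroblast genes, cells that make Igfbp3, had 8 members above 0 and 7 below. Its summed level ranged from 28252 to 40075 CPM in knockout and from 24586 to 39610 CPM in wild type, and none of its markers was at 0. With its mean as a covariate the log2 fold change of Igfbp3 was -0.91 ± 0.12 (SE, edgeR adjusted p = 0.00511). Of 10 endothelial genes 2 lay above 0 and 8 below, and of 9 basal keratinocyte genes 2 above and 7 below. edgeR called 0 in either list, and the summed levels of both overlapped between the groups. The part of any cell type in the value of Igfbp3 was not tested.

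Igfbp4 (ENSMUSG00000017493, chromosome 11), whose product inhibits IGF action until it is cleaved, had 237.1, 204.3, 194.3 and 198.2 CPM in knockout libraries. It had 227.3, 105.2, 183.5 and 212.5 CPM in wild-type libraries. Apart from a low wild-type replicate 2 the groups coincided, and the log2 fold change was 0.20 ± 0.20 (SE, edgeR adjusted p = 0.625), or 0.01 without that library (edgeR adjusted p = 0.979). Igfbp5 (ENSMUSG00000026185, chromosome 1), which encodes a binding protein that attaches to matrix, had 813.0, 1027.5, 1509.1 and 1155.2 CPM in knockout libraries, against 1479.9, 949.5, 1137.2 and 1430.3 CPM in wild-type libraries. Both groups spread widely and overlapped, at a log2 fold change of -0.15 ± 0.20 (SE, edgeR adjusted p = 0.708). Its sign turned with the adipocyte covariate, to 0.075.

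The receptor gene Igf1r (ENSMUSG00000005533, chromosome 7) had 107.8, 93.7, 108.8 and 102.2 CPM in knockout libraries, against 117.7, 108.9, 104.8 and 115.0 CPM in wild-type libraries. The groups overlapped, and the log2 fold change was -0.11 ± 0.08 (SE, edgeR adjusted p = 0.436). The 95% interval from 0.823-fold to 1.04-fold was among the tightest of the set.

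**Figure D2:**
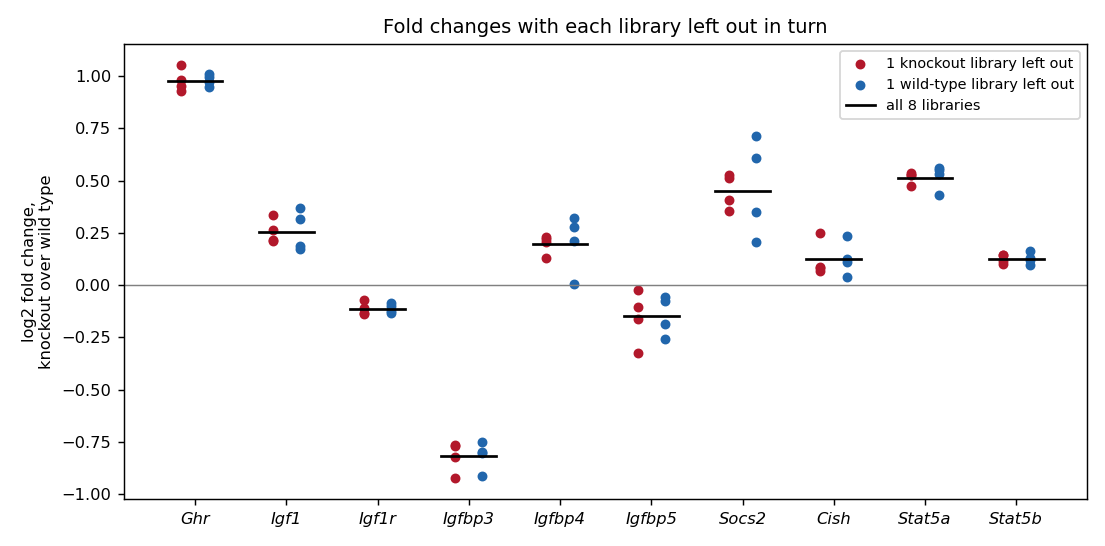
Log2 fold change (knockout over wild type) of the 10 genes with all 8 libraries (black line) and with 1 knockout (red) or 1 wild-type (blue) library left out. Each of the 10 genes keeps its sign in all 8 runs. Socs2 moves between 0.21 and 0.72, and Igfbp4 comes as near to 0 as 0.006.

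Levels can be compared between genes per exon length, as RPKM, the CPM divided by exon length in kilobases. In knockout the order of mean levels was Igfbp5, Igfbp3, Igfbp4, Ghr, Igf1, Stat5b, Stat5a, Igf1r, Socs2 and Cish. In wild type Igf1r stood above Stat5a, and Cish above Socs2. Igfbp5 led by far, at 187.5 ± 48.6 RPKM in knockout and 208.0 ± 41.7 RPKM in wild type (SD, n = 4 each). Ghr stood at 44.1 ± 5.12 RPKM in knockout, where its libraries overlapped those of Igfbp4 at 47.2 ± 4.42 RPKM. In wild type Ghr was at 22.4 ± 1.17 RPKM and its libraries, at most 23.4 RPKM, lay just below those of Igfbp4, at 23.8 RPKM or more.

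Further pairs of neighbours in the knockout order overlapped over their libraries: Igfbp3 with Igfbp4, Igf1 with Stat5b, and Socs2 with Cish. In wild type the overlapping neighbours were Igf1 with Stat5b and Cish with Socs2. Stat5b exceeded Stat5a in both groups, at 17.4 ± 0.774 against 7.16 ± 0.421 RPKM in knockout and 15.9 ± 0.982 against 5.01 ± 0.613 RPKM in wild type. Igfbp3 was at 56.8 ± 8.57 RPKM in knockout, closer to Ghr than in wild type, where it was at 100.3 ± 14.6 RPKM. Ghr has many annotated exons: per length of its longest transcript it was at 95.7 RPKM in knockout and 48.6 RPKM in wild type, where only Igfbp5 was above it in knockout, and Igfbp5 and Igfbp3 in wild type. On that length Socs2 stood above Igf1r in knockout, at 9.47 against 9.04 RPKM, and above Cish in wild type, at 6.91 against 4.51 RPKM, so the order of the low genes depends on the length used.

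**Figure D3:**
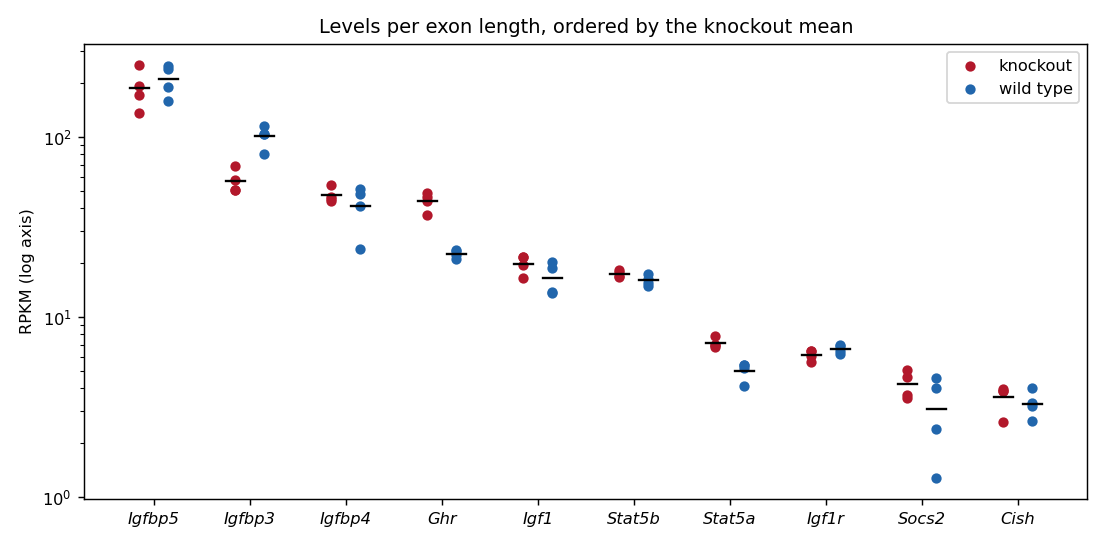
RPKM (log axis) of the 10 genes in the knockout (red) and wild-type (blue) libraries, ordered by the knockout mean, with black lines at group means. Igfbp5 is highest in both groups, at 187.5 RPKM in knockout and 208.0 RPKM in wild type, and Cish and Socs2 are lowest.

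The wild-type libraries themselves shared an order in most of these genes. In 7 of the 10 (Igf1, Igf1r, Igfbp3, Igfbp4, Igfbp5, Socs2 and Stat5b), wild-type replicates 1 and 4 were both above replicates 2 and 3, and in 0 of the 10 both below. Over all 19099 tested genes the first order was seen in 29% and the second in 25.4%. The order was read from these same values, so nothing further is read from its share. Ghr, Stat5a and Cish did not follow it. In Igf1 the gap inside wild type, between 135.6 and 184.1 CPM, was wider than the difference of the group means. The labels name no batch that would part these libraries.

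**Figure D4:**
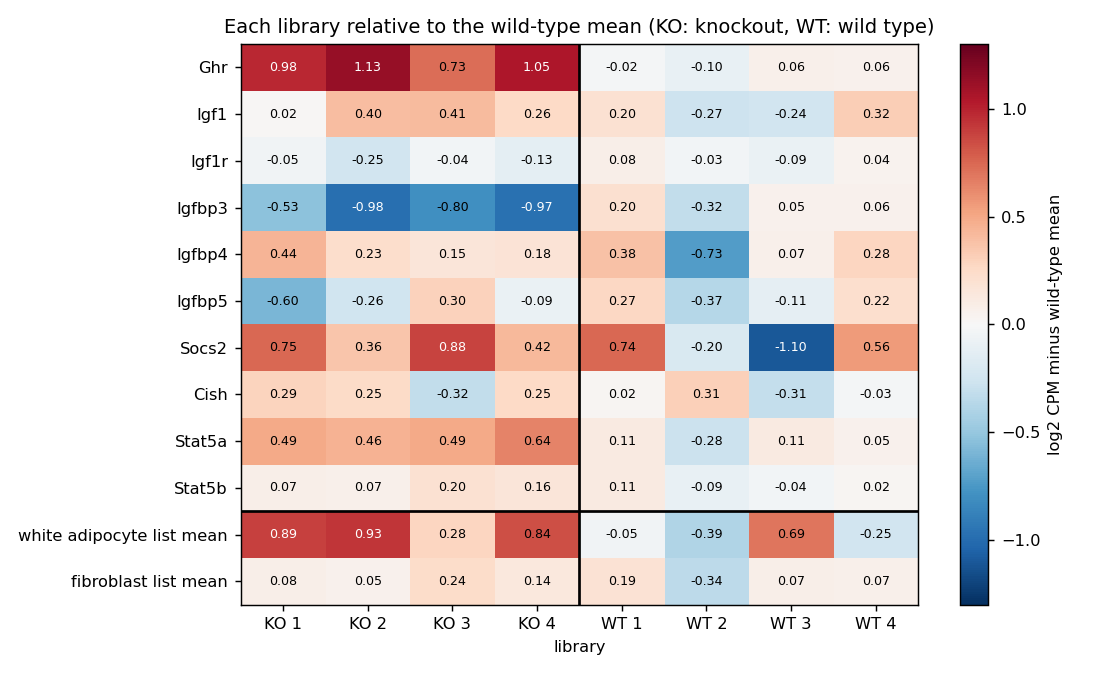
Log2 CPM of each gene in each library minus its wild-type mean, with the means of the white adipocyte and fibroblast lists in the bottom rows. Ghr is between 0.73 and 1.13 in the 4 knockout libraries and near 0 in wild type. The adipocyte list is at 0.69 in wild-type replicate 3.

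The 5 genes whose profile over the 8 libraries was most like that of Ghr were Steap4, G6pdx, Plcb1, Sox5 and Timp3. Likeness was the root mean square difference of log2 CPM after each gene's own mean was removed, and 13539 other named genes whose average reached 1 on that scale were ranked by it. It was 0.11 for Steap4, a metalloreductase gene, and 0.15 for Timp3, an inhibitor of matrix proteases. All 5 were chosen through the same difference between genotypes as Ghr, so their values are a description. Steap4 had 137.4, 158.3, 135.0 and 166.8 CPM in knockout libraries, against 86.9, 73.5, 90.7 and 81.0 CPM in wild-type libraries. G6pdx, which encodes the first enzyme of the pentose phosphate pathway, had 113.5, 115.0, 90.0 and 114.2 CPM in knockout, against 59.2, 52.9, 74.5 and 61.0 CPM in wild type. Its log2 fold change was 0.81 ± 0.12 (SE), and 0.48 with the adipocyte covariate. Ghr, G6pdx and the adipocyte list mean had their lowest knockout value in replicate 3 and their highest wild-type value in replicate 3. Among the set itself Stat5a was nearest to Ghr, at place 81 of 13539, followed by Igf1 at place 1754, and Igfbp3 was the farthest, at place 13337. These places largely restate the difference between genotypes, so they too are a description and no separate sign that a gene followed Ghr.

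Of the other genes of the pathway, 85 of 88 were tested in 5 lists, and 1 was called: Igfbp2, which encodes a further IGF binding protein, fell. It had 32.4, 29.5, 34.5 and 31.0 CPM in knockout libraries, against 51.2, 38.1, 47.8 and 49.1 CPM in wild-type libraries, with no overlap, at a log2 fold change of -0.55 ± 0.10 (SE, edgeR adjusted p = 0.0399). The call ended with any library left out except wild-type replicate 2 or 3, at adjusted p-values between 0.0613 and 0.137, and with the adipocyte covariate at 0.196. Calls over all genes also fell in each of these settings, as given for Stat5a. The log2 fold change of Igfbp2 stayed between -0.63 and -0.50 with any library left out and was -0.57 with the covariate. Over the 85 genes the median log2 fold change was 0.00, with 43 above 0 and 42 below. An edgeR unadjusted p under 0.05 was seen in 25 of 85, beside 3724 of all 19099 tested genes (19.5%). The lists were chosen with earlier results of these data known, so nothing is read from this share. DESeq2 called 6 higher and 4 lower, and limma voom 11 higher and 8 lower. Over all 19099 tested genes DESeq2 called 591 higher and 586 lower, and limma voom 1174 higher and 1361 lower. Nothing is therefore read from the larger counts of these tools, here or in the single lists below.

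In the remaining IGF system, 16 of 18 listed genes were tested. edgeR called 0 higher and 1 lower, Igfbp2, with 7 at an unadjusted p under 0.05 and a median log2 fold change of -0.16. DESeq2 called 2 higher and 1 lower, and limma voom 1 higher and 3 lower. Igfals, named after its values were seen, encodes the acid-labile subunit that growth hormone induces in liver. It had 6.34, 5.41, 2.79 and 4.97 CPM in knockout libraries, against 2.63, 2.17, 2.78 and 2.10 CPM in wild-type libraries. Knockout replicate 3 and wild-type replicate 3 almost touched, and the log2 fold change of 1.01 ± 0.24 (SE) did not pass (edgeR adjusted p = 0.0636), though it did with DESeq2 and limma voom. With the adipocyte covariate the log2 fold change was 0.45.

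Of 16 genes that signal next to the receptor, edgeR called 0, with 4 at an unadjusted p under 0.05, while DESeq2 called 1 higher and 1 lower and limma voom 2 and 2. The kinase gene Jak2, named after its values were seen, averaged 109.5 ± 5.37 CPM in knockout and 106.1 ± 13.8 CPM in wild type (SD, n = 4 each), at a log2 fold change of 0.05 ± 0.10 (SE, edgeR adjusted p = 0.821). Without wild-type replicate 1 the sign turned, to -0.01. Prlr, the receptor gene for prolactin, which also signals through JAK2 and STAT5, stood at a log2 fold change of -0.49 ± 0.11 (SE, edgeR adjusted p = 0.0514). Prlr had 84.6, 69.9, 76.3 and 69.8 CPM in knockout libraries, against 91.2, 108.3, 124.4 and 98.6 CPM in wild-type libraries, so Ghr and Prlr, related receptors, lay on opposite sides of 0. Irs1, which encodes a docking protein of the IGF1 and insulin receptors, stood at 0.64 ± 0.15 (SE, edgeR adjusted p = 0.0671) and the phosphatase gene Ptpn11 at 0.22 ± 0.08 (SE, edgeR adjusted p = 0.169). With the adipocyte covariate Irs1 was at 0.30 and Ptpn11 at 0.08 on the log2 scale.

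Of 15 further STAT5 targets, known mainly from liver and blood cells, edgeR called 0, with 4 at an unadjusted p under 0.05; DESeq2 called 1 higher and limma voom 2 higher and 1 lower. Bcl6, a repressor gene that growth hormone is known to lower in mouse liver, had 162.7, 169.3, 170.2 and 182.9 CPM in knockout libraries. It had 147.7, 118.7, 124.9 and 137.5 CPM in wild-type libraries, with no overlap, at a log2 fold change of 0.37 ± 0.09 (SE, edgeR adjusted p = 0.0588). The cyclin gene Ccnd1 stood at 0.29 ± 0.12 (SE, edgeR adjusted p = 0.227). The cytokine gene Osm, at about 1 CPM, stood at 1.11 ± 0.42 (SE, edgeR adjusted p = 0.185). Its highest library was knockout replicate 3, and Osm was at 0.64 without it, 0.71 with the fibroblast covariate and 1.71 with the adipocyte covariate.

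Of 26 genes of the PI3K, AKT and FOXO branch, through which IGF1 acts on growth and metabolism, edgeR called 0, with 6 at an unadjusted p under 0.05. DESeq2 called 2 higher and limma voom 5 higher. In edgeR 18 of the 26 lay above 0, at a list median of 0.06, beside 8918 of all 19099 tested genes above 0. Nothing is read from this count. Pik3r1, the regulatory subunit of PI3K, averaged 384.5 ± 46.3 CPM in knockout and 272.2 ± 30.6 CPM in wild type (SD, n = 4 each), at a log2 fold change of 0.50 ± 0.11 (SE, edgeR adjusted p = 0.0562). The transcription factor gene Klf15 stood at 0.605 ± 0.15 (SE, edgeR adjusted p = 0.0724) and the kinase gene Mtor at 0.26 ± 0.09 (SE, edgeR adjusted p = 0.179). With the adipocyte covariate Mtor was at 0.06.

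Of 12 tested genes of other receptors that use STAT5, edgeR called 0, with 4 at an unadjusted p under 0.05, DESeq2 called 2 lower, and limma voom 1 higher and 2 lower. Il2rb, a chain of the interleukin 2 and 15 receptors of T and natural killer cells, averaged 6.75 ± 0.398 CPM in knockout and 11.4 ± 2.68 CPM in wild type (SD, n = 4 each), at -0.76 ± 0.17 on the log2 scale (SE, edgeR adjusted p = 0.0523). A list of 9 T cell genes had 1 member above 0 and 8 below, 1 of them called. Its sum was between 28.8 and 42.6 CPM in knockout and between 50.6 and 60.2 CPM in wild type, with no marker at 0, and its part in the value of Il2rb was not tested. Il3ra stood at -0.53 ± 0.13 (SE, edgeR adjusted p = 0.0776) and the erythropoietin receptor gene Epor at -0.64 ± 0.22 (SE, edgeR adjusted p = 0.156).

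**Figure D5:**
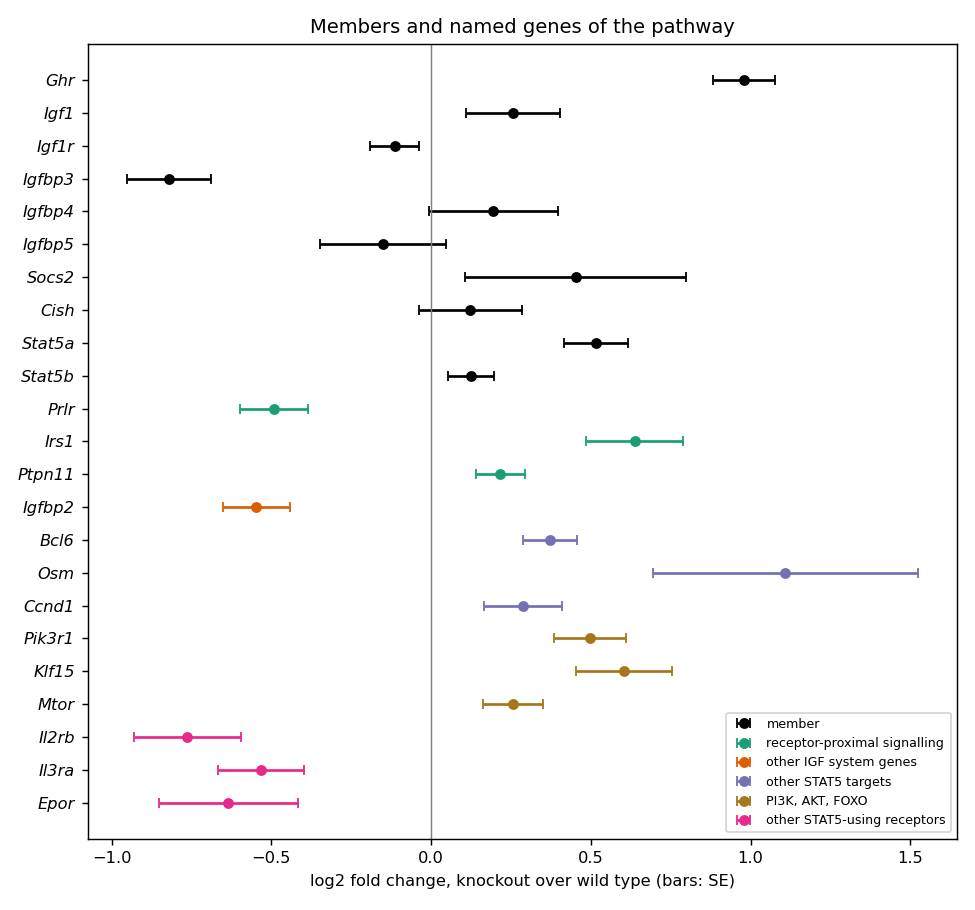
Log2 fold change (knockout over wild type) with its SE for the 10 genes of the set (black) and the 13 named genes of the 5 pathway lists (colours), n = 4 libraries per group. Stat5a lies at 0.515, Igfbp3 at -0.82 and Igfbp2 at -0.55; Ghr, at 0.98, chose the set and was not tested.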

How the data were processed

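RNA of whole back skin from 4 knockout and 4 wild-type libraries was analysed. The authors deposited raw read counts per gene; per the submitters' processing notes, GSNAP aligned the reads to mm10 and featureCounts 1.6.2 did the counting. How strand and multiply aligned reads were handled in counting is not given in the sources used here. The series text and the sample labels name different library kits, and no test assumed either. Exon lengths per gene are another deposited column and served for RPKM. Of 49763 features, 92 spike-ins with at most 1 read in a library were left out, and 49326 of the 49671 genes matched a GENCODE symbol.

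edgeR 4.0.16 (R 4.3.3) was used with filterByExpr, TMM scaling and its robust quasi-likelihood test, genotype being the only term. Benjamini-Hochberg adjustment ran over all 19099 tested genes, with calls at an adjusted p under 0.05. SE values come from the F statistic, and 95% intervals from its degrees of freedom. On simulated counts of 18896 genes the knockout against wild-type fit called 50% of genes changed 1.5-fold and 77.3% of those changed 2-fold. These counts were drawn for each gene on its own, without variation that genes share within a library, so the rates may not hold for these libraries. Log2 CPM used a prior count of 2. The closest libraries of a group differed by a chi-square of 5.94 per degree of freedom, well above counting noise. Alternatives were RLE and upper quartile factors, DESeq2 1.42.0, limma 3.58.1 voom with quality weights, other filters, marker list means as covariates and each library left out.

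The members and the lists were chosen with earlier results of these data known. Named genes were the 10 members, per pathway list the called genes or else the 3 with the smallest p, and the 5 profiles closest to Ghr; others are said to be named after their values were seen. Promoter windows were taken from RefSeq.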

Additional observations from a re-analysis of the deposited data

Results flagged for a closer look

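In Cish, knockout replicate 3 stood far from the other knockout libraries, at 16.8 CPM against 24.9 to 25.6 CPM. Without that library the log2 fold change of Cish was 0.25 (edgeR adjusted p = 0.398). In G6pdx, among the genes most like Ghr, the same library was low, at 90 CPM against 113.5 to 115.0 CPM. Of 66 groups of 4 libraries examined in this way, 2 were picked out, where chance alone picks about 1 in 20.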

How the results depend on the processing

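Over the 16 alternatives, the log2 fold change of Ghr lay between 0.81 and 1.06, that of Stat5a between 0.39 and 0.56 (9 still called) and that of Igfbp3 between -0.93 and -0.75 (11 still called). Igf1, Igf1r, Igfbp4, Igfbp5, Socs2, Cish and Stat5b were called in 0 of them. Against 1 higher and 1 lower of the 9 genes, the adipocyte covariate gave 0 and 0, and leaving out single libraries gave 0 to 1 for each. Against 0 higher and 1 lower pathway genes, the counts were 6 and 4 with DESeq2, 11 and 8 with limma voom, and 5 and 3 without a filter. They were 3 lower with upper quartile factors, 5 lower with the fibroblast covariate, 0 lower with the adipocyte covariate, and 0 to 8 higher and 0 to 4 lower without single libraries. Against 136 higher and 134 lower over all genes, they were 591 and 586, 1174 and 1361, and 234 and 268 with the first 3 of these, 259 and 386 with the fibroblast covariate and 1 and 1 with the adipocyte covariate. Without single libraries they were 9 to 679 higher and 2 to 646 lower. The sign turned for Igfbp5 with the adipocyte covariate (0.075) and for Jak2 without wild-type replicate 1 (-0.014, against up to 0.128 without another library). The alternatives for single pathway genes and for genes like Ghr were added after seeing the data. The cause of these shifts was not tested. No paired analysis was possible because the labels give no replicate numbers. With 4 libraries a group, a 1.5-fold change is often missed.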

Other observations

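Some further IGF genes, named after their values were seen, did not pass the edgeR test. The growth factor gene Igf2 averaged 13.8 ± 1.85 CPM in knockout and 20 ± 5.68 CPM in wild type, or -0.53 ± 0.19 on the log2 scale (SE, 4 libraries each, edgeR adjusted p = 0.168), and -0.34 without wild-type replicate 3. The binding protein gene Igfbp6, whose product prefers IGF2, averaged 253.3 ± 26.4 CPM in knockout and 170.3 ± 67.4 CPM in wild type, at 0.57 ± 0.25 (SE, edgeR adjusted p = 0.251), with overlapping groups, and 1.02 with the white adipocyte list mean as a covariate. The matrix protease gene Adamts1 had 169.0, 171.1, 174.9 and 196.4 CPM in knockout libraries, against 140.7, 63.4, 85.3 and 139.7 CPM in wild-type libraries. Its groups did not overlap. Wild-type replicates 1 and 4 were above 2 and 3, an order seen in 29% of all tested genes. On the log2 scale the difference was 0.73 ± 0.23 (SE, edgeR adjusted p = 0.136).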
